A study of Mus musculus with 6 samples.

Results

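The IL-6, IL-10 and IL-12 families of cytokines were examined in M2 macrophages (Mφs) in which a fragment of a glutamate tRNA had been targeted. The genes were chosen by name, as the rows of the deposited table with the symbols Il6, Il6ra, Il6st, Il10, Il10ra, Il10rb, Il12a, Il12b, Il23a and Il27. All 10 were found among the 41549 genes of the table, 6 coding for cytokine chains and 4 for receptor chains. Messenger RNA was sequenced in 6 libraries, 3 per group, of bone marrow-derived Mφs from adult wild type mice, a C57Bl/6N strain in the study's methods. In both groups bone marrow cells were grown with macrophage colony-stimulating factor (M-CSF), transfected at the unpolarized M0 stage with an antisense oligonucleotide of the locked nucleic acid type and then exposed to IL-4 and IL-13, which drive the anti-inflammatory M2 phenotype. The αGlu group received an oligonucleotide against 5'tRFGlu(CTC), a fragment from the 5′ end of tRNA-Glu, and the Ctr group a control antisense. According to the study's reporting statement, replicates of primary cells are preparations from different animals. Whether a Ctr and an αGlu library share an animal is not stated for these Mφs. The model is a transfected culture of primary cells, and no untransfected cells and no M0 or pro-inflammatory cells were among these libraries.

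These cytokines carry signals between immune cells. IL-6 binds IL-6Rα and then gp130, the chain encoded by Il6st that nearly all of the IL-6 family shares, and signals mainly through JAK kinases and STAT3. IL-10 binds IL-10Rα and IL-10Rβ, also signals through STAT3, and restrains inflammatory gene expression in Mφs. The IL-12 family is built of 2 chains each. IL-12 joins p35 (Il12a) to p40 (Il12b), IL-23 joins p19 (Il23a) to p40, IL-27 joins p28 (Il27) to Ebi3, and IL-35 joins p35 to Ebi3, so a message for 1 chain alone does not give the joined cytokine.

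The oligonucleotide is shown because it defines the comparison, with its capitals marking all its bases, and the targeted stretch follows, with capitals marking the bases complementary to it.
αGlu antisense oligonucleotide: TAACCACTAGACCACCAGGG
targeted 5′ stretch: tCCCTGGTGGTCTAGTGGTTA
The 20 bases of the oligonucleotide are complementary to bases 2 to 21 of the 21-base stretch. The fragment itself is too short to be measured by these libraries, so its blockade was not checked here. By quantitative PCR, the study reports a lower level of it in Mφs given the αGlu oligonucleotide than in Ctr. Whether those were the sequenced cultures is not stated. The longest run of bases complementary to the oligonucleotide in any annotated spliced transcript of a member was 11 bases, in Il10rb, and 0.74% of 21901 protein-coding genes had a run at least as long. It was 9 bases in Il10ra (14.4% of genes), 8 in Il6, Il12a and Il6ra (43.8%), and 6 or 7 in the other 5, against a median of 7 and a maximum of 13 over all genes.

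Promoter windows are shown for the cytokine chains whose levels are contrasted below, Il6 and Il12a, which were higher in 2 of the 3 αGlu libraries, and Il12b, which stayed near 0. They run from 250 bases before to 50 bases after a RefSeq start site in GRCm38.p6, and all lie on the plus strand. Il12a has 2 annotated starts. Capitals mark matches to a κB motif (by name) or to the AP-1 motif TGANTCA.
Il6, chr5:30012864-30013163: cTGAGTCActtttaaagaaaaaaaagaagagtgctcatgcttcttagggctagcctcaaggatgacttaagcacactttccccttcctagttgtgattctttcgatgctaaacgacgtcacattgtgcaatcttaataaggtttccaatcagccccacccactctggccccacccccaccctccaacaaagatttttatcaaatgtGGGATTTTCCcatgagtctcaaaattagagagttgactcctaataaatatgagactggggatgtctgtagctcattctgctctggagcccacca
Il12a start 1, chr3:68690394-68690693: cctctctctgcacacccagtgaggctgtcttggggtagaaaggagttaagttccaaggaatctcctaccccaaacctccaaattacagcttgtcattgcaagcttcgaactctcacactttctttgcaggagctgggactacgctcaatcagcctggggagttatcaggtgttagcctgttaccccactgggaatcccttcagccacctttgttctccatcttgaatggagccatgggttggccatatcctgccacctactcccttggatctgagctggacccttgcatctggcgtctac
Il12a start 2, chr3:68691174-68691473: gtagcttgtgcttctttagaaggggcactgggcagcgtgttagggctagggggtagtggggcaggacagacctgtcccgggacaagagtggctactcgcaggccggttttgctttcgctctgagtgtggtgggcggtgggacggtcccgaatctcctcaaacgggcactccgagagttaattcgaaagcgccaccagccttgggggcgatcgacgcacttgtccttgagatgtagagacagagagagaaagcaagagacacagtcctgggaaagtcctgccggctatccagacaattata
Il12b, chr11:44399813-44400112: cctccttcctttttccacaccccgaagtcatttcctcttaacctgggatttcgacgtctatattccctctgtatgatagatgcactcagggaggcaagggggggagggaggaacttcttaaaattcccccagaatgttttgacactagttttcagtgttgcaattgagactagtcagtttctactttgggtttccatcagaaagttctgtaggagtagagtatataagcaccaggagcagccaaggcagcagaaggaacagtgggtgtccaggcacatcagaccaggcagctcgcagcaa
Both strands were searched for these motifs, for the STAT motif TTCNNNGAA and for the interferon regulatory factor (IRF) motif GAAANNGAA. The Il6 window held 1 κB match, 44 to 35 bases before the start, and 1 AP-1 match, 249 to 243 bases before it, and these do not overlap. The Il12a and Il12b windows held none of the 4 motifs. Of 32851 promoter windows of that length, 8.46% held the κB motif, 7.81% the AP-1 motif, 8.3% the STAT motif and 8.56% the IRF motif. The matches are letters in a window, not measured binding. Windows were at hand for 5 of the 10 genes, and those of Il6ra and Il6st held no match either.

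Total exon reads per library were between 17912831, in αGlu 1, and 30386653, in αGlu 2. TMM factors, which correct library sizes for composition, were between 0.951 and 1.07. Values below are CPM (reads scaled to a common depth) on TMM-scaled library sizes unless said otherwise. The 3 αGlu libraries were not alike. Across genes, log2 CPM of αGlu 2 and αGlu 3 correlated at a Pearson r of 0.992, whereas for αGlu 1 the r was 0.929 with either and 0.966 to 0.982 with the 3 Ctr libraries. αGlu 1 fell inside the range of the Ctr libraries for 6 of the 10 genes. Among these were Il12b and Il23a, which had no read in αGlu 1, and the same share over all genes was not counted. Because of the correlations, fold changes are given with all 6 libraries and without αGlu 1. That library was thus singled out by its likeness to Ctr in these same data. Leaving it out tends to widen differences between groups, so adjusted p-values and calls without αGlu 1 are not independent support. All 9 Mφ markers were above 1 CPM, with summed levels of 8998 to 9639 CPM in Ctr and 9281 to 11320 CPM in αGlu. No dendritic cell marker of 8 had a mean over the libraries above 1 CPM, although Clec9a reached 1.63 in Ctr 2 and 1.03 in αGlu 1 (sums 2.0 to 2.51 in Ctr and 1.14 to 1.84 in αGlu, Xcr1 at 0), and lymphocyte markers summed to at most 0.346 CPM. Summed neutrophil markers were higher in αGlu, 186 to 609 against 106 to 159 CPM, through Csf3r, and without it the other 7 summed to 1.21 to 4.81 in Ctr and 1.43 to 2.64 in αGlu, with Ly6g at 0. Mast cell and basophil markers summed to 1.86 to 3.97 CPM in Ctr and 1.36 to 8.43 in αGlu, and fibroblast markers to 1.63 to 7.18 and 1.01 to 2.87. The part of these other markers in the results was not tested.

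Per unit length, the receptor chains were far more abundant than the cytokine chains. In Ctr Mφs the deposited TPM values (length-scaled transcript shares) were 270 ± 20.4 for Il10rb, 203 ± 51.8 for Il6st, 108 ± 11.4 for Il10ra and 26.1 ± 1.17 for Il6ra (SD, n = 3). These 4 levels did not overlap between neighbours in the order. Il10 followed at 5.32 ± 2.95 TPM and Il27 at 2.79 ± 1.09 TPM, and these 2 overlapped. Il6 had 0.201 ± 0.179 TPM, Il12a 0.0976 ± 0.169 and Il12b 0.0235 ± 0.0407, all overlapping, and Il23a had no read. In αGlu the order was headed again by Il10rb, at 270 ± 30.2 TPM. Il10ra (130 ± 16.5) and Il6st (102 ± 67.4) came next and overlapped with each other. Il12a, below Il6 in the Ctr order, stood next after Il6ra in αGlu at 16.8 ± 15.8 TPM, with libraries from 0.314 to 31.7, so that its range overlapped that of Il6ra above it (21.5 ± 5.31) and Il10 below it (7.15 ± 8.16). Il27 had 7.13 ± 2.11 TPM, Il6 1.20 ± 0.733, Il12b 0.0579 ± 0.0616 and Il23a 0.0299 ± 0.0518.

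**Figure D1:**
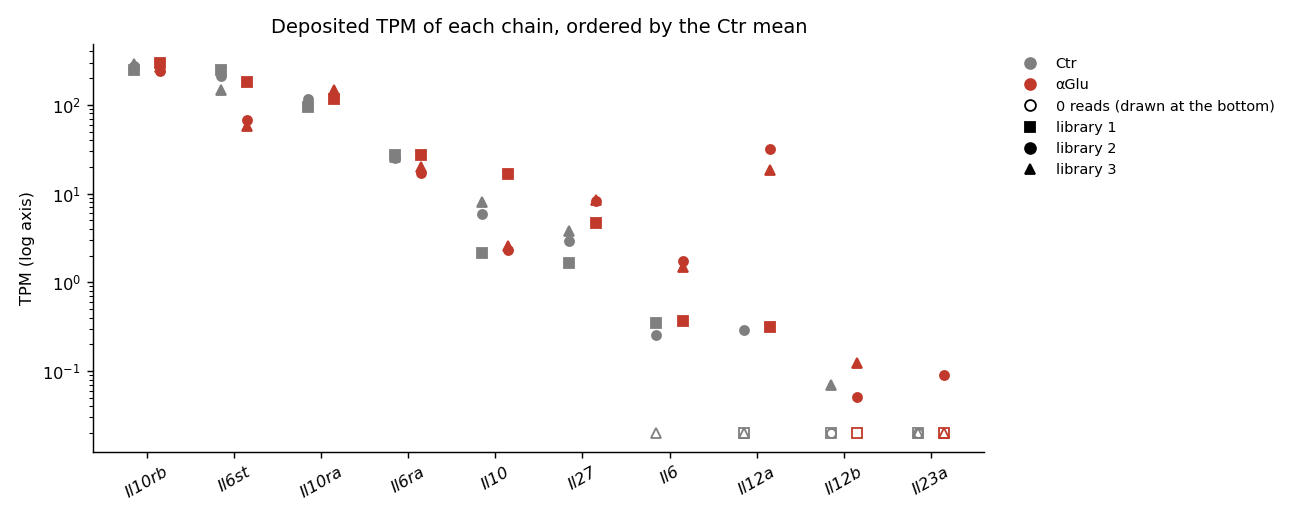
Deposited TPM (log axis) of the 10 genes in each library, grey for Ctr and red for αGlu, with the marker shape giving the library number and open symbols at the bottom for libraries without a read. The 4 receptor chains lie at the left, Il12a spans from 0.314 to 31.7 TPM within αGlu, and Il12b and Il23a stay below 0.2 TPM in every library.

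The comparison of αGlu with Ctr asks whether blocking the fragment before polarization altered these messages. A gene was called at a Benjamini-Hochberg adjusted p under 0.1 and a change of more than 2-fold in edgeR's quasi-likelihood test. The study gives these limits for its tRNA fragment profiling of sorted mouse cells. For its islet mRNA it gives 2-fold and a p under 0.05, and for these M2 libraries its text states none. With all 6 libraries, 6 of the 10 genes had enough reads to be tested and 0 were called, as were 0% of the 11933 genes tested. No gene of the table had an adjusted p below 0.149. Of these 6, 1 had an unadjusted p under 0.05, Il27, against 24.7% of all genes. Likewise, 1 of the 6 tested genes did not overlap between groups, against 30.2% of all genes, and 3 of all 10 did not. Without αGlu 1 this was so for 4 of the 6, against 65.8% of all genes, so the share of members was near the background. DESeq2 gave an adjusted p for 8 members and called 2, Il12a and Il27, with 8.16% of 13707 genes called. Il12a had 4 reads over Ctr, so its mean count, on which DESeq2 filters, came almost wholly from αGlu 2 and 3. Its DESeq2 call is thus not independent support. Without αGlu 1, 8 members were tested by edgeR and 4 were called, Il12a, Il6 and Il27 as higher and Il6st as lower. In that fit 18.6% of 12340 genes were called, 8.05% higher and 10.5% lower. Il6 and Il12a passed the filter on low counts there because of their αGlu reads, so that of the 6 genes tested in both fits 2 were called. The median log2 fold change was 0.05 over the tested members and 0.02 over all tested genes with 6 libraries. In bulk RNA, fewer cells making a message and less message per cell cannot be told apart.

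**Figure D2:**
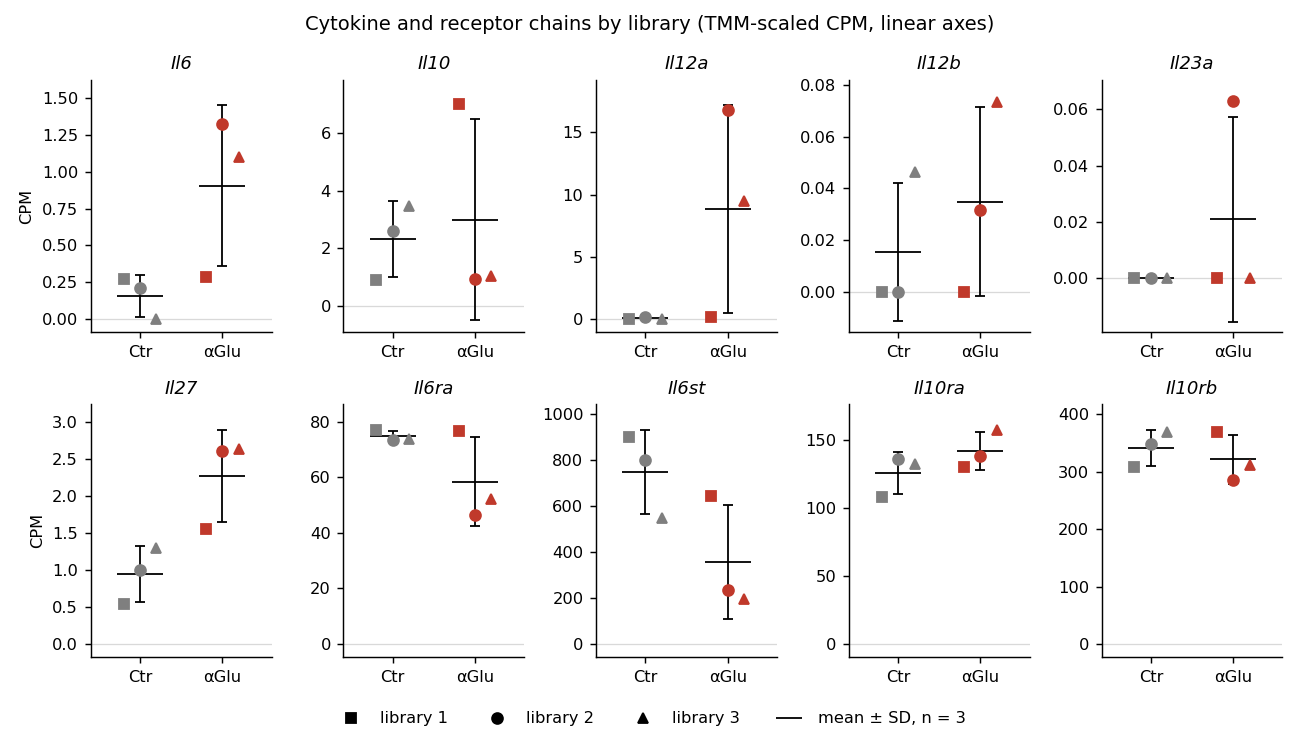
TMM-scaled CPM of the 10 genes in each library on linear axes, with marker shapes for library numbers and bars for the mean ± SD (n = 3 per group). For Il12a, Il6 and Il6st the square of αGlu 1 lies beside the Ctr libraries and apart from αGlu 2 and 3, and for Il10 it lies above all other libraries.

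Il12a (ENSMUSG00000027776, chr3:68690644-68698547 in GRCm38), which encodes the p35 chain of IL-12 and IL-35, had the largest fold difference of the 10 genes. It had 0, 4 and 0 reads in Ctr 1, 2 and 3, and 3, 535 and 258 reads in αGlu 1, 2 and 3. These are 0, 0.167 and 0 CPM against 0.172, 16.8 and 9.46 CPM. The groups did not overlap, but αGlu 1 exceeded the highest Ctr library by less than 1 read at equal depth, while αGlu 2 and 3 stood far above. Too few libraries had reads for the filter, and without a filter the log2 fold change was 7.13 ± 1.72 (SE, adjusted p = 0.162, edgeR). Without αGlu 1 it was 7.69 ± 0.54 when no filter was used. With the filter it was 7.68 ± 0.64 (adjusted p = 0.000327, edgeR). Il12a entered that filtered fit only through its αGlu 2 and 3 reads, so its adjusted p there is not independent support. Over the pooled Ctr libraries, the CPM ratio was 2.90 for αGlu 1 (exact 95% interval 0.425 to 17.2), 284 for αGlu 2 (110 to 1047) and 160 for αGlu 3 (61.6 to 590). These intervals cover counting error only.

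Il12b (ENSMUSG00000004296, chr11:44400063-44414033), the p40 chain that IL-12 and IL-23 share, had 0, 0 and 1 reads in Ctr and 0, 1 and 2 reads in αGlu. Il23a (ENSMUSG00000025383, chr10:128296139-128298752), the p19 chain of IL-23, had 0 reads in each Ctr library and 0, 2 and 0 in αGlu. All libraries were at or under 3 reads for both genes, which is between 0.0944 and 0.172 CPM depending on the library, so no fold is given and a difference was not detectable at this depth. In αGlu 2 and 3, where p35 messages reached 535 and 258 reads, p40 messages thus numbered 1 and 2.

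Il27 (ENSMUSG00000044701, chr7:126589010-126594941), the p28 chain of IL-27, was low in Ctr at 0.545, 1.0 and 1.3 CPM. It had 1.55, 2.61 and 2.64 CPM in αGlu. All 3 αGlu libraries lay above all Ctr libraries, with αGlu 1 nearest to them. The log2 fold change was 1.26 ± 0.39 (adjusted p = 0.162, edgeR), 1.46 ± 0.36 without αGlu 1 (adjusted p = 0.0212), and 1.26 with DESeq2 (adjusted p = 0.0539). Exons of Il27 overlap those of Apobr on the opposite strand, which had 2002 to 4329 reads per library, and whether strand was used in counting was not given in the sources used here. The genes tested whose log2 CPM over the 6 libraries was most like that of Il27 were Cd86 (Pearson r = 0.998), a costimulatory ligand for T cells, Enpp4 (0.997) and Ddrgk1 (0.997). Of 11147 candidates 288 exceeded an r of 0.95, and these points share the difference between the groups and between αGlu 1 and the rest. Cd86 was at 3.50, 9.91 and 15 CPM in Ctr and 23.6, 54.8 and 67.6 in αGlu, in the same order of libraries as Il27.

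Il6 (ENSMUSG00000025746, chr5:30013114-30019981), an inflammatory cytokine, had 6, 5 and 0 reads in Ctr and 5, 42 and 30 in αGlu. This is 0.273, 0.209 and 0 CPM against 0.287, 1.32 and 1.10 CPM. αGlu 1 had a level beside that of Ctr 1, and only αGlu 2 and 3 exceeded 1 CPM. Without a filter the log2 fold change was 2.48 ± 0.91 (adjusted p = 0.217, edgeR), and 2.87 ± 0.68 without αGlu 1. With the filter and without αGlu 1 it was 2.86 ± 0.70 (adjusted p = 0.0197). Il6 entered that filtered fit only through its αGlu 2 and 3 reads, so its adjusted p there is not independent support. The CPM ratio to the pooled Ctr libraries was 1.76 (0.479 to 5.49) in αGlu 1, 8.11 (4.10 to 17.5) in αGlu 2 and 6.75 (3.29 to 14.9) in αGlu 3.

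Il10 (ENSMUSG00000016529, chr1:131019845-131024974), the anti-inflammatory cytokine of the set, had 0.909, 2.59 and 3.48 CPM in Ctr and 7.0, 0.944 and 1.03 CPM in αGlu. αGlu 1 was the highest of all 6 libraries, and αGlu 2 and 3 lay just above the lowest Ctr library. The log2 fold change of 0.33 ± 0.92 (adjusted p = 0.832, edgeR) turned to -1.24 ± 0.56 without αGlu 1 (adjusted p = 0.125). No direction is therefore given for Il10. The log2 ratio of Il12b to Il10, a common readout of Mφ activation, averaged -4.23 ± 0.78 over Ctr libraries and -3.95 ± 1.91 over αGlu libraries (SD, n = 3, pseudocount 0.1 CPM, exact two-sided permutation test p = 0.8, where 0.1 is the smallest p possible). As Il12b had at most 2 reads, the ratio follows Il10 and the pseudocount.

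Il6st (ENSMUSG00000021756, chr13:112464070-112510086), which encodes gp130, was at 897, 798 and 545 CPM in Ctr. It was at 642, 235 and 196 CPM in αGlu. αGlu 1 lay within the Ctr range and αGlu 2 and 3 below it. The log2 fold change was -1.06 ± 0.50 (adjusted p = 0.237, edgeR), and -1.80 ± 0.23 without αGlu 1 (adjusted p = 0.00166). Il6ra (ENSMUSG00000027947, chr3:89864059-89913196), the IL-6 binding chain, followed the same layout within a narrower span, with 77.0, 73.4 and 73.8 CPM in Ctr and 76.6, 46.6 and 52.2 in αGlu. Its log2 fold change was -0.36 ± 0.19 (adjusted p = 0.279), and without αGlu 1 it was -0.60 ± 0.08 (adjusted p = 0.00208), past the p threshold but under 2-fold.

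The IL-10 receptor chains differed little between the groups. Il10ra (ENSMUSG00000032089, chr9:45253837-45269149), the ligand-binding chain, had 108, 136 and 133 CPM in Ctr and 130, 139 and 158 in αGlu, and the groups overlapped. Its log2 fold change was 0.18 ± 0.13 (adjusted p = 0.394, edgeR), and 0.23 ± 0.13 without αGlu 1 (adjusted p = 0.192). Il10rb (ENSMUSG00000022969, chr16:91406164-91425834), the chain that IL-10 shares with IL-22 and interferon-λ, had 308, 347 and 369 CPM in Ctr and 369, 285 and 312 in αGlu, which also overlapped. Its log2 fold change was -0.09 ± 0.14 (adjusted p = 0.707), and -0.20 ± 0.11 without αGlu 1 (adjusted p = 0.194). Its exons overlap those of the gene model Gm21970, with at most 197 reads, on the same strand.

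**Figure D3:**
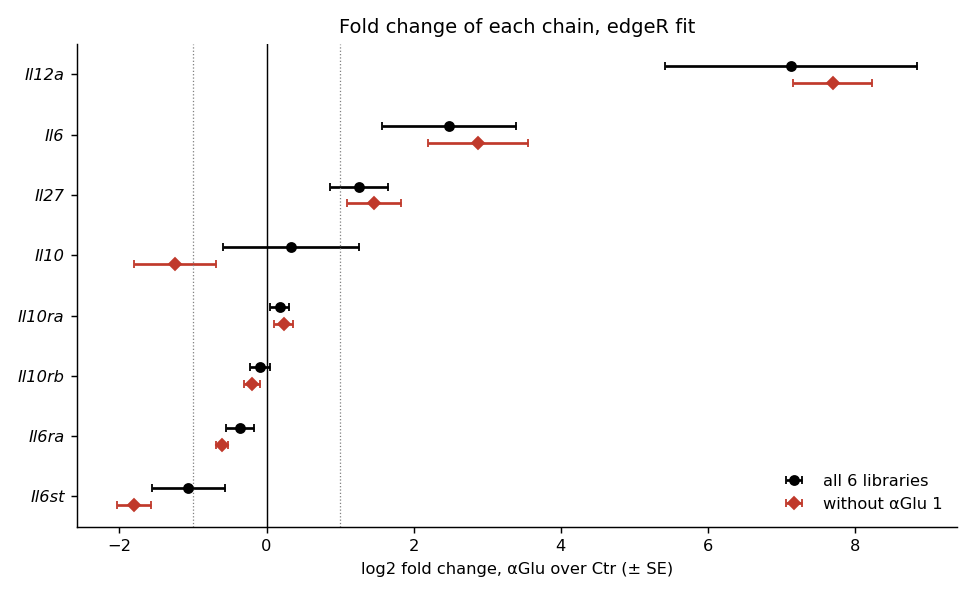
log2 fold change of αGlu over Ctr (± SE, edgeR) for the 8 genes with more than 3 reads in at least 1 library, with all 6 libraries (black) and without αGlu 1 (red), dotted lines at 2-fold. Il12a and Il6 come from the fit without a low-count filter, where leaving out αGlu 1 gave 7.69 and 2.87, and Il10 is the gene whose sign turned, from 0.33 to -1.24.

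The partner chains and receptors of the IL-12 family were next examined. Of the 5 genes, 4 were tested with all 6 libraries and 0 were called. Against 30.2% of all genes, 1 of these 4 did not overlap between groups. That was Ebi3, the partner of p28 and of p35, with 19.5, 19.2 and 24.3 CPM in Ctr and 30.3, 57.2 and 67.0 in αGlu. Its log2 fold change was 1.29 ± 0.30 (adjusted p = 0.156, edgeR), and 1.56 ± 0.13 without αGlu 1 (adjusted p = 0.000309). Ebi3 and Il27 thus both had their 3 highest libraries in αGlu. The receptor of IL-27, Il27ra, was at 12.4, 12.5 and 9.42 CPM in Ctr and at 9.52, 2.49 and 1.54 in αGlu, with only αGlu 2 and 3 below Ctr (log2 fold change -1.37 ± 0.67, adjusted p = 0.249, and -2.50 ± 0.25 without αGlu 1, adjusted p = 0.00067). Il12rb2, the signalling chain of the IL-12 receptor, was at 18.8, 13 and 19.3 against 15.4, 2.77 and 3.89 CPM (log2 fold change -1.23 ± 0.66, adjusted p = 0.28, and -2.36 ± 0.24 without αGlu 1, adjusted p = 0.000735). Il12rb1, which IL-12 and IL-23 receptors share, was highest in αGlu 1, at 6.31 CPM, with 2.24 and 2.57 in αGlu 2 and 3 and 0.954, 1.25 and 2.6 in Ctr. Its log2 fold change was 1.20 ± 0.56 (adjusted p = 0.24), and 0.58 ± 0.44 without αGlu 1 (adjusted p = 0.33). Il23r, the IL-23 binding chain, had no read in the Ctr libraries and αGlu 1, and 4.03 and 3.78 CPM in αGlu 2 and 3. Pooled over αGlu 2 and 3, these 231 reads are 88.0-fold above a floor of 3 reads in all over the 3 Ctr libraries. This floor is lower than the 3 reads per library used for Il12b and Il23a. Without αGlu 1, of the 4 genes tested in both fits 1 was called higher (Ebi3) and 2 lower (Il12rb2 and Il27ra). Of all genes in that fit, 8.05% were called higher and 10.5% lower. Il23r was also called higher, but it passed the filter through its αGlu reads alone.

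**Figure D4:**
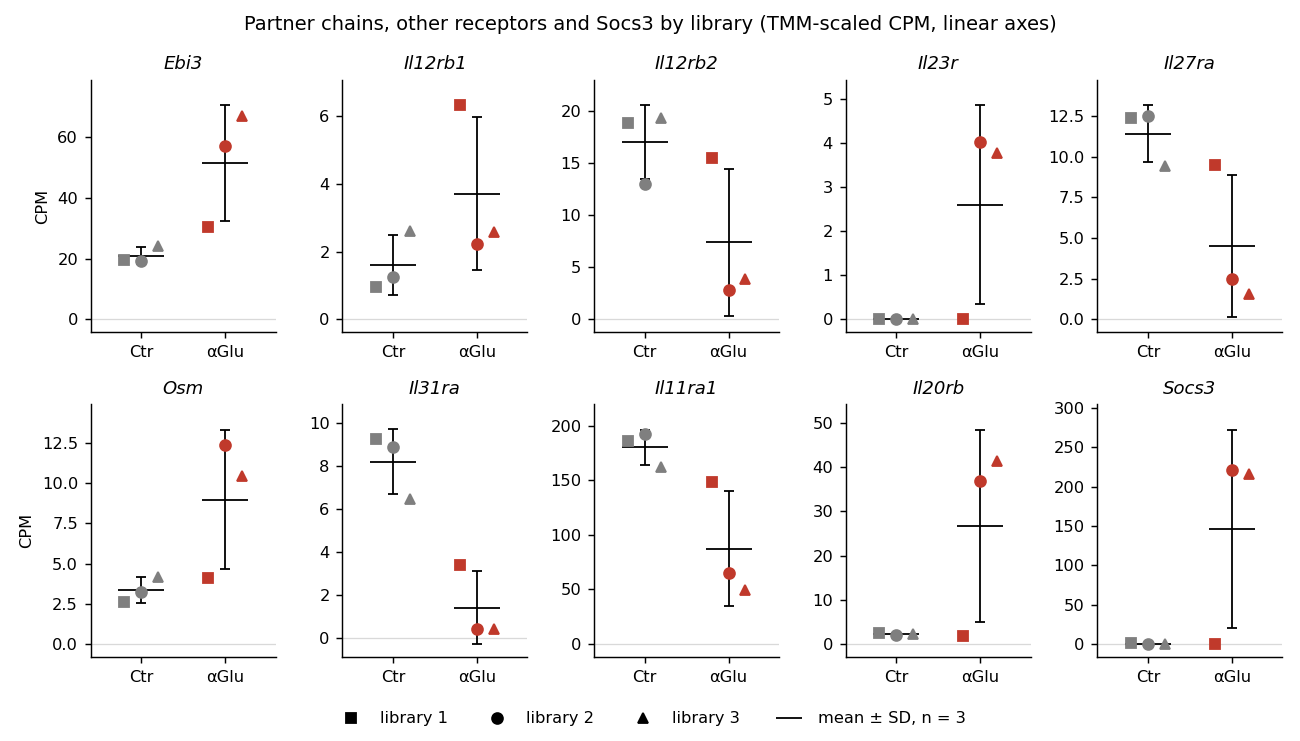
TMM-scaled CPM of IL-12 family partners and receptors, of IL-6 family genes, of Il20rb and of Socs3 in each library on linear axes, with bars for the mean ± SD (n = 3 per group). Ebi3 is highest in the 3 αGlu libraries, whereas Il23r, Il20rb and Socs3 are high in αGlu 2 and 3 alone.

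Among 13 other cytokines and receptors of the IL-6 family, most of which use gp130, 5 were tested and 0 were called, with a median log2 fold change of -0.92. Il31ra, the receptor chain of IL-31, which pairs with OSMR and not with gp130, was at 9.22, 8.86 and 6.45 CPM in Ctr and 3.38, 0.441 and 0.440 in αGlu (log2 fold change -2.60 ± 0.83, adjusted p = 0.163, edgeR, and -4.20 ± 0.27 without αGlu 1, adjusted p = 0.000129). Il11ra1, the receptor chain of IL-11, was at 186, 192 and 162 against 148, 64.8 and 49.6 CPM (-1.04 ± 0.41, adjusted p = 0.194, and -1.66 ± 0.15 without αGlu 1, adjusted p = 0.000407). Both were lower in all 3 αGlu libraries than in any Ctr library, where 30.2% of all genes did not overlap in either direction. Osm, which encodes oncostatin M and was chosen after its values were seen, had 2.59, 3.26 and 4.18 CPM in Ctr and 4.13, 12.4 and 10.4 in αGlu, and αGlu 1 fell within the Ctr range. Its log2 fold change was 1.43 ± 0.43 (adjusted p = 0.16), and 1.77 ± 0.21 without αGlu 1 (adjusted p = 0.00127). Without αGlu 1, Osm was called higher and Il31ra, Il11ra1 and Lifr, the LIF receptor, were called lower. Of all genes in that fit, 8.05% were called higher and 10.5% lower. Of 11 other genes of the IL-10 family and its receptors, 6 had no read in any library and 1 was tested. That gene was Il20rb, a chain of the receptors for IL-19, IL-20 and IL-24, at 2.41, 2.13 and 2.32 CPM in Ctr and 1.72, 36.8 and 41.5 in αGlu. It was not called with all libraries (log2 fold change 3.55 ± 1.05, adjusted p = 0.16) and was called without αGlu 1 (4.09 ± 0.11, adjusted p = 7.75e-06). The ligands that share this receptor, Il19, Il20 and Il24, had at most 0.110 CPM.

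The kinases and STAT proteins that these receptors use, with their SOCS inhibitors, made up a list of 9 genes. With all libraries 8 were tested and 0 were called, and the median log2 fold change was 0.85. Of the 8, 3 were higher without overlap, where 30.2% of all genes did not overlap in either direction. Stat3, which acts downstream of gp130 and of the IL-10 receptor, had 112, 132 and 121 CPM in Ctr and 147, 233 and 233 in αGlu (log2 fold change 0.75 ± 0.20, adjusted p = 0.157, edgeR, and 0.93 ± 0.09 without αGlu 1, adjusted p = 0.000682, under 2-fold). Socs3, an inhibitor that binds gp130 and is induced by STAT3, was at 0.772, 0.418 and 0.139 CPM in Ctr and 0.516 in αGlu 1, but at 221 and 216 in αGlu 2 and 3 (8.34 ± 2.10, adjusted p = 0.156, and 8.92 ± 0.32 without αGlu 1, adjusted p = 1.97e-05). Socs1, which inhibits JAK kinases, had 7.27, 8.94 and 9.23 CPM in Ctr and 12.2, 38.6 and 39.6 in αGlu (1.83 ± 0.45, adjusted p = 0.156, and 2.20 ± 0.11 without αGlu 1, adjusted p = 5.54e-05). The 3 kinases were unlike each other. Jak2 had 142, 213 and 216 CPM in Ctr and 207, 762 and 840 in αGlu, with αGlu 1 inside the Ctr range (1.66 ± 0.53, adjusted p = 0.162, and 2.07 ± 0.19 without αGlu 1, adjusted p = 0.000474). Jak1 overlapped between groups, with a log2 fold change of -0.04 ± 0.11 (adjusted p = 0.811) that was -0.08 ± 0.10 with αGlu 1 left out (adjusted p = 0.552). Tyk2 also overlapped, at 0.06 ± 0.11 (adjusted p = 0.745) and at -0.05 ± 0.08 with αGlu 1 left out (adjusted p = 0.679). Without αGlu 1, 4 of the 8 genes tested in both fits were called higher (Socs3, Socs1 and Jak2 among them) and 0 lower. Of all genes in that fit, 8.05% were called higher and 10.5% lower. Stat4 was also called higher, but it passed the filter through its αGlu reads alone.

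Of 7 genes known to respond to IL-10 or STAT3 in Mφs, 6 were tested and 0 were called, with a median log2 fold change of 1.62. Higher without overlap were 3, where 30.2% of all genes did not overlap in either direction. Of these 3 the highest was Il4ra, the receptor chain for the polarizing cytokines IL-4 and IL-13, with 62.7, 61.1 and 66.3 CPM in Ctr and 78.2, 510 and 643 in αGlu (2.70 ± 0.73, adjusted p = 0.157, edgeR, and 3.18 ± 0.12 without αGlu 1, adjusted p = 2.61e-05). Bcl3, an atypical IκB protein, had 8.13, 8.28 and 8.63 against 11, 59.8 and 55.9 CPM (2.34 ± 0.61, adjusted p = 0.156, and 2.79 ± 0.08 without αGlu 1, adjusted p = 8e-06). The third was Etv3, a transcriptional repressor, at 0.42 ± 0.10 (adjusted p = 0.156, and 0.45 ± 0.10 without αGlu 1, adjusted p = 0.0132, under 2-fold). Il1rn, which encodes the IL-1 receptor antagonist, had a larger fold change but overlapped between groups, at 11.7, 32.4 and 24.5 CPM in Ctr and 21.4, 399 and 292 in αGlu (3.38 ± 1.04, adjusted p = 0.16, and 3.91 ± 0.40 without αGlu 1, adjusted p = 0.000706). Without αGlu 1, 4 of the 6 genes tested in both fits were called higher and 0 lower. Of all genes in that fit, 8.05% were called higher and 10.5% lower. Ddit4 was also called higher, but it passed the filter through its αGlu reads alone. This list was drawn up with results of these libraries known, so its direction is not independent evidence.

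Of 12 transcription factors that act on Il6, Il10 or Il12b, all were tested and 0 were called, with a median log2 fold change of 0.09. Nfkbiz, which encodes IκBζ, a coactivator required for Il6 and Il12b induction, was the only one higher without overlap, at 3.50, 3.43 and 3.43 CPM in Ctr and 4.59, 21.8 and 25.3 in αGlu (2.32 ± 0.61, adjusted p = 0.156, edgeR, and 2.76 ± 0.11 without αGlu 1, adjusted p = 2.8e-05). Batf3, a factor of the AP-1 group, had 18.4, 20.1 and 22.6 against 14.5, 5.51 and 5.47 CPM (-1.28 ± 0.41, adjusted p = 0.163, and -1.90 ± 0.12 without αGlu 1, adjusted p = 0.000129). Atf3, a repressor of inflammatory cytokine genes, had 646, 764 and 643 against 521, 247 and 180 CPM (-1.12 ± 0.40, adjusted p = 0.178, and -1.69 ± 0.17 without αGlu 1, adjusted p = 0.000666). Batf3 and Atf3 were the 2 genes lower without overlap, where 30.2% of all genes did not overlap in either direction. Without αGlu 1, 3 of the 12 were called higher (Nfkbiz, Cebpb and Cebpd) and 2 lower (Batf3 and Atf3). Of all genes in that fit, 8.05% were called higher and 10.5% lower.

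Of 5 genes that set the stability of these messages, 2 were higher without overlap, Arid5a and Zc3h12a, 1 was lower, Elavl1, and 0 were called. Among all genes, 30.2% did not overlap in either direction. Arid5a, which stabilizes Il6 mRNA, had 10.6, 11.6 and 12.6 CPM in Ctr and 19.3, 41.1 and 39.4 in αGlu (1.52 ± 0.30, adjusted p = 0.149, edgeR, and 1.79 ± 0.09 without αGlu 1, adjusted p = 5.54e-05). Zc3h12a, which encodes Regnase-1, an RNase that degrades Il6 and Il12b mRNA, had 40.2, 42.7 and 46.6 against 50.5, 134 and 129 CPM (1.28 ± 0.37, adjusted p = 0.159, and 1.6 ± 0.09 without αGlu 1, adjusted p = 6.29e-05). Both were called higher without αGlu 1, as were 8.05% of all genes, although their products act on Il6 mRNA in opposite ways. Elavl1, an RNA-binding protein, was at -0.13 ± 0.07 (adjusted p = 0.309, and -0.14 ± 0.08 without αGlu 1, adjusted p = 0.193). Adam10 and Adam17, the proteases that release soluble IL-6Rα, overlapped between groups with all libraries and were not called with or without αGlu 1. Without αGlu 1 both passed the p threshold but stayed under 2-fold. Adam10 was then at -0.49 ± 0.10 (adjusted p = 0.0121, edgeR) and Adam17 at 0.38 ± 0.09 (adjusted p = 0.0162).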

How the data were processed

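Messenger RNA was measured in 6 libraries (Illumina Stranded mRNA kit, NovaSeq sequencer). The authors processed reads in the QIAGEN RNA-seq Analysis Portal, with build GRCm38 in the submitters' processing notes, and the aligner, the annotation and the use of strand are not given in the sources used here. The authors deposited exon counts per gene, not normalized, with RPKM and TPM values scaled for exon length. Deposited CPM columns were not used.

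Counts were filtered with filterByExpr (minimum count 10, minimum total 15), scaled by TMM and fitted with edgeR 4.0.16 (quasi-likelihood test, R 4.3.3, two-sided, Benjamini-Hochberg over all genes tested), group being the only term. Genes below the filter come from the fit of all genes with a read. Alternatives were DESeq2 1.42.0, limma-voom 3.58.1, other scalings, filters and thresholds, the replicate number as a block, and each library left out. Only the edgeR fit was tested on simulated counts, in which both groups had the spread of the Ctr libraries. The genes, lists and tests were chosen with earlier results of these data known. Named were all members, up to 2 highest and 2 lowest genes per list among those without overlap between groups, direct partners, and the 3 genes most like Il27. Others (Osm, Il20rb, Etv3, Jak2, Il1rn, and those named as called without αGlu 1) were chosen after their values were seen. Gene positions are from GENCODE M21, promoters from RefSeq. The values of 1 list gene are not reported here.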

Additional observations from a re-analysis of the deposited data

How the results depend on the processing

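Without αGlu 1, 2290 genes were called in place of 0, and 4 members in place of 0. Of the 6 members tested with all libraries, 4 in place of 1 did not overlap between groups. Among all genes tested this share was 65.8% in place of 30.2%. Over all 10 members, with those below the filter, the count was 6 in place of 3. Leaving out any other library called 0 genes. As αGlu 1 is the αGlu library most like Ctr, leaving it out tends to widen the group differences. Over the 6 libraries left out in turn, the log2 fold change was 1.92 to 3.04 for Il6, 6.25 to 10.74 for Il12a, 0.99 to 1.54 for Il27, -1.80 to -0.77 for Il6st and -1.24 to 0.77 for Il10, which was also negative without Ctr 1 (-0.04). In the lists, 0 genes were called with all libraries. Without αGlu 1, called were 4 of 5 tested other IL-6 family genes, 1 of 1 of the other IL-10 family and 4 of 5 IL-12 partners. So were 5 of 9 genes of JAK-STAT and SOCS, 5 of 7 response genes, 5 of 12 regulators and 2 of 5 of mRNA stability. Of these, Il23r, Stat4 and Ddit4 passed the filter through αGlu reads alone. In that fit 18.6% of all genes were called, and the lists were chosen with earlier results known. DESeq2 called 1119 genes and 2 members, with log2 fold changes of 7.28 for Il12a and 1.26 for Il27. The Il12a call rests on its αGlu 2 and 3 reads. Il10 turned to -0.33 with limma-voom. Without a filter and without αGlu 1, Il10 passed both limits at -1.23 (adjusted p = 0.091).

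With the replicate number as a block, 17 genes were called, Il10 turned to -0.28, and Il12a passed the limits at 7.24 (adjusted p = 0.0927, no filter). In the blocked edgeR fit, Il6st was at -1.24 ± 0.31 (adjusted p = 0.166) and Il27 at 1.29 ± 0.24 (adjusted p = 0.151), neither called. Once group means were removed, libraries of the same number had correlations of 0.08, 0.06 and 0.15. Those of different numbers were all lower, from -0.11 to 0.05. The labels state no pairing, while the paper compared the fragment's level between αGlu and Ctr cultures with a paired t test. Its reporting statement says that, for primary mouse islet cells, the groups of a replicate shared an animal. Mφs are not named there. Whether the numbers pair the samples is therefore not settled, and the main fit does not use them. The log2 ratio of Il12b to Il10 (0.29) ran from -0.34 to 1.39 with 1 library left out, below 0 without αGlu 2 (-0.19) or αGlu 3 (-0.34). Of the alternative values, 133 were classed as the same as the main value, 13 as moved, 6 as reversed and 7 as stronger. The 133 include counts and levels, which have no direction. They also include Il6ra without αGlu 1, which passed the p threshold but stayed under 2-fold. Causes were not tested.

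Reads limit Il12b, Il23a and, in Ctr, Il6 and Il12a. With 3 libraries a group, p-values cover the spread between these cultures only.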
